A study of Mus musculus with 6 samples.

Results

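The 8 genes described here encode ABC transporters, membrane pumps that spend ATP to move drugs, dyes, conjugates and lipids out of the cell. They were Abcb1a, Abcb1b, Abcg2, Abcc1, Abcc4, Abcc5, Abca1 and Abcg1, chosen by name from the 19935 genes that the array annotation named. Each had 1 probe set, a group of probes read as 1 value. For all 8 the mean level over the arrays was above the filter on dim probe sets, though Abcb1b lay under it in some arrays. The study measured RNA of mouse hematopoietic stem cells, here HSC, which live in bone marrow, renew themselves and give rise to all blood lineages, on 6 arrays. There were 3 arrays of wild-type (WT) mice and 3 of mice labelled SELP -/-, written Selp-/- here, which lack the adhesion receptor P-selectin. Both genotypes were of strain C57BL/6, and the arrays were numbered 1 to 3 within each genotype. Age, sorting and the making of the Selp allele are not given in the sources used here. No probe set carried the name Selp, so the labels were not checked by the deleted gene. Whether each array stands for its own mouse is not stated, so p-values reflect the spread between arrays alone, and that spread may be technical.

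Blood stem cells are known for keeping fluorescent dyes out. Abcg2, the breast cancer resistance protein, pumps out the DNA dye Hoechst and so gives the dye-poor side population in which stem cells are enriched. Abcb1a and Abcb1b, the mouse copies of P-glycoprotein, pump out rhodamine and many cancer drugs. The transporters of the C family carry conjugates and nucleotides, and Abca1 and Abcg1 hand cholesterol and phospholipid to lipoproteins, a step known to restrain the growth of stem and progenitor cells.

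Levels are given on the log2 scale after correction for background and quantile normalization, so a difference of 1 is a doubling. Levels of different genes are not ranked against each other, and where 1 gene is subtracted from another within an array, only the change of that difference between arrays is read. The median intensity of an array ran from 563 to 751 before normalization. Arrays with the same number deviated together from their genotype means, and the array numbers differed in their cell marker profiles, arrays numbered 3 the most. Sums over markers are of normalized levels taken back from log2 to the linear scale. The HSC markers with a probe set, 15 of 17 listed, summed to 24934.5 to 34681.9 in arrays numbered 1 and 2. In WT 3 and Selp-/- 3 they summed to 21372 and 15509. Thy1 and Gata2 were higher there and make up much of these sums, which therefore understate the fall of most other HSC markers. Their log2 levels were 12.33 and 13.02 in WT 3 and 11.30 and 12.30 in Selp-/- 3. Of the 15 HSC markers, between 0 and 1 lay under the filter level of 8.79 in each of the arrays numbered 1 and 2. In WT 3 there were 4 and in Selp-/- 3 there were 6. Sums over all 10 mast cell and basophil markers ran from 4631 to 5709 in arrays numbered 1 and 2, and were 56772 in WT 3 and 43627.5 in Selp-/- 3. Monocyte and macrophage markers, 9 of 11 listed, summed to 8468 to 9383 against 21668 and 34927. Erythroid markers, 7 of 10 listed, also parted numbers 1 and 2, with sums of 22815 and 23006 in WT 1 and Selp-/- 1, 8019 and 7317 in WT 2 and Selp-/- 2, and 4356 and 4782 in WT 3 and Selp-/- 3. All 11 neutrophil markers summed to 41682 and 47092 in number 1, 19869 and 18910 in number 2 and 74367.5 and 71562 in number 3, in the same order of genotypes. No member intensity was 0. The labels call all 6 arrays HSC. Results by array number are therefore given beside those by genotype, and the part of these other cells in them was not tested. In such bulk samples fewer cells of a type and less RNA per cell cannot be told apart.

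Promoter windows of 300 bases, 250 before and 50 after the start of the gene, were taken from RefSeq on build GRCm38.p6 for the genes on which the results turn. Abcb1a and Abcb1b are neighbours on the chromosome and are shown because their levels parted between array numbers, and Abca1 because it differed most. Capitals mark matches on either strand to any of 4 motifs. GGGCGG is the GC box, the core of the element that factors of the Sp family bind in many promoters. The letters CCAAT name the box read by the factor NF-Y, often found just upstream of start sites. The TATA box was searched as TATAAA, the element that places the start of transcription in a minority of promoters. Last, the palindrome CACGTG is an E-box, bound by basic helix-loop-helix factors such as Myc and Usf.
Abcb1a (plus strand of chr5:8566841-8567140): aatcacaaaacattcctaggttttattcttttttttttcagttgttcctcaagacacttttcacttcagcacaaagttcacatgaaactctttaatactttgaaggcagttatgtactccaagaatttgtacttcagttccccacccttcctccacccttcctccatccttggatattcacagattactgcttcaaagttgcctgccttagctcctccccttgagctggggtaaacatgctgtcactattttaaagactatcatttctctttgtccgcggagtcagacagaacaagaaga
Abcb1b (plus strand of chr5:8797897-8798196): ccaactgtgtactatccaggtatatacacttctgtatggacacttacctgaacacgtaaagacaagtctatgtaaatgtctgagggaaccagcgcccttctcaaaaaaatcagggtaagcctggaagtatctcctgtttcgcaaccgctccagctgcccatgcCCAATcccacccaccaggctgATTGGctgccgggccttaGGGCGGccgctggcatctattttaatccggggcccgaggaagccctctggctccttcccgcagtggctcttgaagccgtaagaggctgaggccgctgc
Abca1 (minus strand of chr4:53159846-53160145): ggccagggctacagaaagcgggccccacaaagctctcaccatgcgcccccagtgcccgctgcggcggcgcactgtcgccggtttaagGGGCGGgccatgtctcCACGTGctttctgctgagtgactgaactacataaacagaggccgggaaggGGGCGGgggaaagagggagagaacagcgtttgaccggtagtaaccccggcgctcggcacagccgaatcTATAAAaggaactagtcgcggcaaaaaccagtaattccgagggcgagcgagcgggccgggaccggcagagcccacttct
The Abcb1a window held 0 matches to any of the 4 motifs and had 40.3% G and C. The Abcb1b window had 55% G and C and held 1 GC box and 2 CCAAT boxes, 1 on each strand. The Abca1 window had 62.7% G and C and held 2 GC boxes, 1 E-box and 1 TATA box. Of all 32851 such windows, 35.7% held a GC box, 37.4% a CCAAT box, 13.6% a TATA box and 7.15% an E-box, and the motifs did not overlap each other in these windows. A match is a description of letters and not of binding. RefSeq windows were matched for 6 of the 8 genes, the others being Abcc1 and Abcg1, and Abcg2 had 3 windows and Abcc4 2, from which the array does not choose.

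The multidrug pumps were first compared between genotypes. None of the 3 differed beyond the spread of the arrays, and Abcb1a, Abcb1b and Abcg2 all had means slightly lower in Selp-/- HSC. Abcb1a had intensities of 666, 657 and 823 in WT 1 to 3 and of 657, 747 and 676 in Selp-/- 1 to 3. Its normalized levels were 9.17, 9.38 and 9.25 in WT arrays 1 to 3, against 8.99, 9.38 and 9.001 in the Selp-/- arrays. The genotypes overlapped, with arrays numbered 2 at the same level. The difference, Selp-/- minus WT, was -0.14 (SE 0.14, 95% interval -0.47 to 0.18).

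Abcb1b, the second mouse P-glycoprotein gene, had intensities of 719.5, 736.5 and 534.5 in WT arrays 1 to 3, against 706.5, 744.5 and 450 in the Selp-/- arrays. After normalization these were 9.30, 9.58 and 8.47 in WT arrays 1 to 3, against 9.11, 9.37 and 8.24 in the Selp-/- arrays. The genotypes overlapped, and both arrays numbered 3 lay far below the other 4. Within each number the Selp-/- array was the lower, with differences of -0.19, -0.21 and -0.23. The genotype difference of -0.21 had an SE of 0.37 and an interval of -1.102 to 0.67 without the replicate block. With the array number as a block the SE was 0.095 and the interval -0.44 to 0.01, with an adjusted p of 0.983 (limma).

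Abcg2 had levels of 9.57, 9.71 and 8.96 in WT 1 to 3 and of 9.66, 9.60 and 8.80 in Selp-/- 1 to 3. Here too the arrays numbered 3 were the lowest of both genotypes, and the genotypes overlapped. Selp-/- HSC differed from WT by -0.06 (SE 0.29, interval -0.75 to 0.63), higher in the pair numbered 1 and lower in the other pairs.

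**Figure D1:**
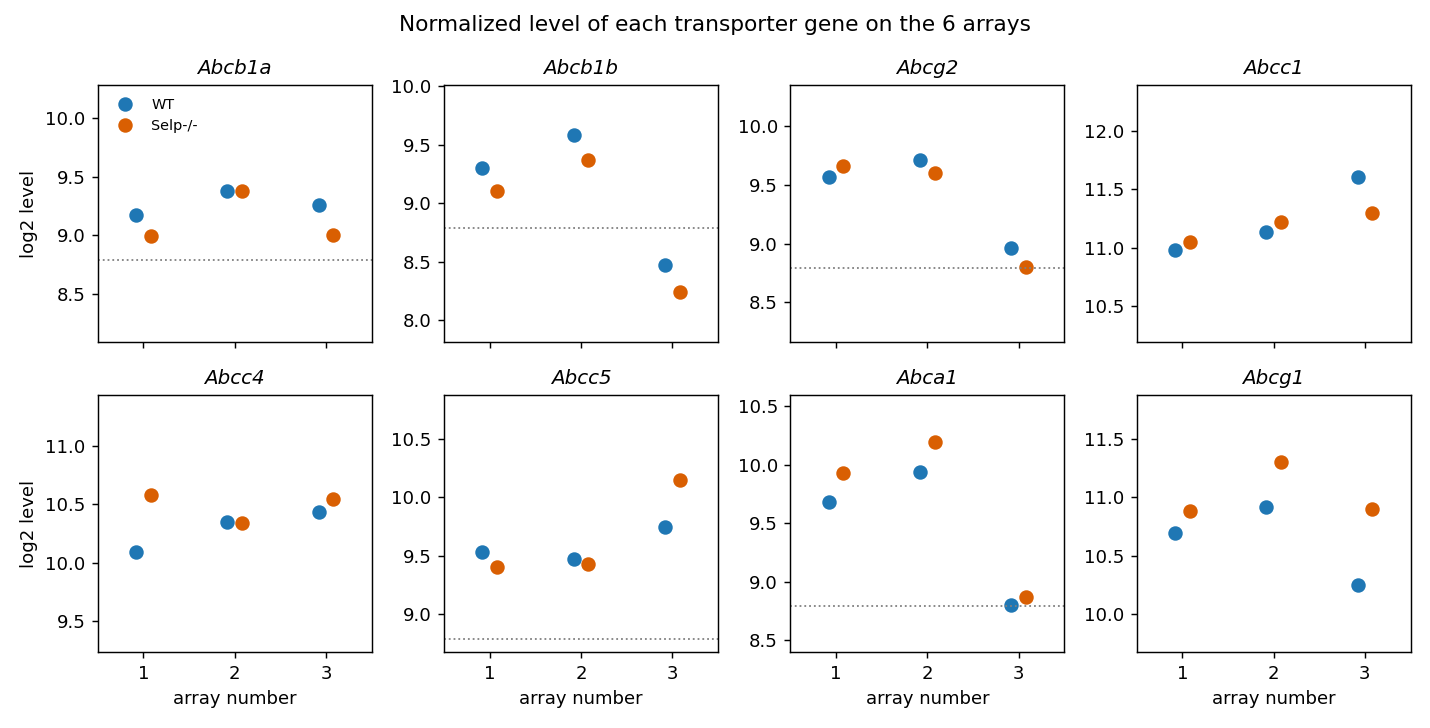
Normalized log2 level (vertical axis) of each of the 8 transporter genes against array number, 1 point per array, WT in blue and Selp-/- in orange; each panel spans the same height and the dotted line is the level of 8.79 under which mean levels were filtered out. Abcb1b, Abcg2 and Abca1 were lowest in both arrays numbered 3, while Abcb1a stayed between 8.99 and 9.38.

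Between array numbers the pumps parted. Abcb1b and Abcg2 were lower in arrays numbered 3 than in those numbered 1 and 2, and Abcb1a was not called. Abcb1b fell by 0.98 on the log2 scale in arrays numbered 3 (SE 0.10, adjusted p = 0.0014, limma). The drop was -0.97 within WT and -0.9997 within Selp-/- HSC. Abcg2 fell by 0.76 (SE 0.11, adjusted p = 0.0047), 1.69-fold lower, with -0.68 within WT and -0.84 within Selp-/- HSC. Abcb1a gave -0.10 (SE 0.11, interval -0.36 to 0.15, adjusted p = 0.55), and turned to 0.13 without normalization, or -0.07 relative to all probe sets. In WT 3 and Selp-/- 3 Abcb1b lay under the filter level, where background takes a larger part of the signal. It passed the filter only through its levels in numbers 1 and 2, which limits the size of its fall, so no fold is given. Abcg2 in Selp-/- 3, at 8.80, lay close to the filter level. Each array number holds 2 arrays, 1 per genotype.

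Because Abcb1a and Abcb1b sit next to each other and encode proteins of the same function, they were also compared within each array, where a scaling factor common to the array drops out. Abcb1b minus Abcb1a was 0.13, 0.21 and -0.78 in WT 1 to 3 and 0.12, -0.01 and -0.76 in Selp-/- 1 to 3. The arrays numbered 3 stood apart from the other 4, with no overlap. The shift between numbers was -0.88, from a mean of 0.11 to -0.77 (two-sided exact permutation test, p = 0.067, the smallest that 15 assignments allow, so this design cannot reach 0.05; adjusted p over 2 such comparisons 0.067). The shift was also -0.88 with median centring, and -0.68 without background correction, both with and without quantile normalization. The comparison reuses the values behind the calls above, and its assignments ignored genotype, so it is no separate support for those calls. The genes are similar in sequence, and whether the probes of each read the other was not tested.

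The C family exporters among the 8 genes behaved otherwise, which is not a trait of the whole C family. Of its other tested genes, Abcc10 was lower in arrays numbered 3, without a call. It measured 9.27 in WT 3 and 9.35 in Selp-/- 3, against 9.41 to 9.69 in arrays numbered 1 and 2. Abcc3, Abcc6 and Abcc8 overlapped between the array numbers. All 3 members of that family, Abcc1, Abcc4 and Abcc5, had higher means in arrays numbered 3, and 1 of them, Abcc5, passed the test. Abcc5, which exports cyclic nucleotides and nucleotide analogs, had levels of 9.54, 9.47 and 9.75 in WT arrays 1 to 3, against 9.41, 9.43 and 10.14 in the Selp-/- arrays. Arrays numbered 3 were the highest of each genotype, most of all Selp-/- 3. Abcc5 rose by 0.48 in arrays numbered 3 (SE 0.13, adjusted p = 0.046, limma), 1.40-fold. That call was lost without a filter (adjusted p = 0.082) and without WT 2, Selp-/- 1, Selp-/- 2 or Selp-/- 3 (0.077, 0.12, 0.10 and 0.38), and without Selp-/- 3 the difference was 0.24. Between genotypes Abcc5 differed by 0.08 (SE 0.22, interval -0.44 to 0.59).

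Abcc1, which exports glutathione conjugates and leukotriene C, measured 10.98, 11.14 and 11.60 in WT arrays 1 to 3, against 11.05, 11.22 and 11.29 in the Selp-/- arrays. Arrays numbered 3 were again above the other 4, WT 3 the highest. The difference of arrays numbered 3 was 0.35 (SE 0.13, adjusted p = 0.097) and did not pass, except without normalization, where it was 0.61, or 0.42 relative to all probe sets (adjusted p = 0.0039). Between genotypes it was -0.05 (SE 0.19, interval -0.51 to 0.40), and 0.07 in the arrays numbered 1 and 2 alone.

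Abcc4, an exporter of cyclic nucleotides and prostaglandins, measured 10.09, 10.35 and 10.43 in WT arrays 1 to 3, against 10.58, 10.34 and 10.54 in the Selp-/- arrays. WT 1 was the lowest array and Selp-/- 1 the highest, and the groups overlapped by genotype and by number. Its differences were 0.20 by genotype (SE 0.15, interval -0.15 to 0.54) and 0.15 by number (SE 0.14, adjusted p = 0.49).

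The cholesterol exporters had higher means in Selp-/- HSC in all 3 pairs, without passing the test, and Abca1 was the member that differed most between array numbers. Abca1, which loads cholesterol onto lipid-poor apolipoprotein, had intensities of 908, 904 and 638 in WT arrays 1 to 3, against 1232, 1181 and 627 in the Selp-/- arrays. Its normalized levels were 9.68, 9.94 and 8.80 in WT arrays 1 to 3, against 9.93, 10.20 and 8.87 in the Selp-/- arrays. The arrays numbered 3 lay below the other 4 in both genotypes, and the genotypes overlapped. Abca1 fell by 1.104 in arrays numbered 3 (SE 0.10, adjusted p = 0.0010, limma), 2.15-fold lower. The fall was -1.01 within WT and -1.20 within Selp-/- HSC. Both arrays numbered 3 lay close to the filter level of 8.79, where background takes a larger part of the signal. This limits the size of the fold. The genotype difference was 0.19 (SE 0.42, interval -0.80 to 1.18), or 0.24, 0.26 and 0.07 within numbers 1, 2 and 3.

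Abcg1, which passes cholesterol on to mature lipoprotein particles, measured 10.70, 10.92 and 10.25 in WT arrays 1 to 3, against 10.88, 11.30 and 10.90 in the Selp-/- arrays. WT 3 was the lowest array, but Selp-/- 3 lay among the arrays numbered 1 and 2, and WT 2 lay above Selp-/- 1 and Selp-/- 3. Its genotype difference of 0.40 was the largest of the 8 (SE 0.21, interval -0.11 to 0.91, adjusted p = 1), or 1.32-fold, and 0.19, 0.38 and 0.64 within the pairs. With the replicate block the interval was 0.11 to 0.70 at an unadjusted p of 0.014 and an adjusted p of 0.98 (limma). Between numbers Abcg1 gave -0.37 (SE 0.13, adjusted p = 0.089), with -0.55 within WT and -0.19 within Selp-/- HSC. Within arrays, Abca1 minus Abcg1 went from a mean of -1.01 in numbers 1 and 2 to -1.74 in number 3, with WT 3 at -1.46 and Selp-/- 3 at -2.03 (exact permutation test, two-sided, p = 0.067, the smallest possible). That shift of -0.73 was -0.57 without background correction. It too reuses the values of the tests above, with assignments that ignored genotype, and is no separate support.

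**Figure D2:**
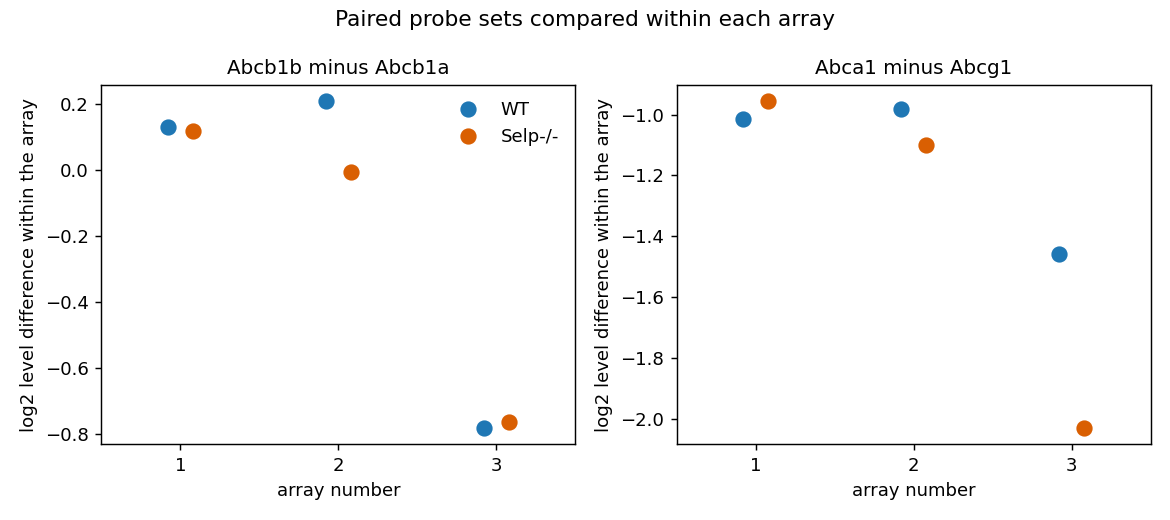
Difference of normalized log2 levels within each array (vertical axis) against array number, for Abcb1b minus Abcb1a (left) and Abca1 minus Abcg1 (right), 1 point per array, WT in blue and Selp-/- in orange. In both panels the arrays numbered 3 lie below the other 4, at -0.78 and -0.76 on the left and -1.46 and -2.03 on the right.

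Over the 8 genes, the genotype test with limma called 0, at an adjusted p of 1 each, against 0 of 17289 probe sets tested (0%). At an unadjusted p under 0.05 there were 0 members without the block and 1, Abcg1, with it, against 122 and 630 of all probe sets. Differences ran from -0.21 to 0.40 with a median of 0.011, against 0.0054 for all probe sets tested, and 4 lay above 0 and 4 below. In 0 of the 8 genes did the genotypes not overlap, against 4.21% of all probe sets. The widest intervals were those of Abca1 and Abcb1b, which reached 1.18 and -1.102.

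Between arrays numbered 3 and those numbered 1 and 2, 1 of the 8 members was called higher, against 9.13% of all probe sets, and 3 were called lower, against 11.7%. Of those called lower, Abcb1b passed the filter only through its levels in numbers 1 and 2. The members' median difference was -0.24, and that of all probe sets -0.01. Arrays numbered 3 did not overlap the other 4 in 2 members on the higher side and 3 on the lower, against 20.1% and 25.1% of all probe sets. Without normalization the median of all probe sets shifted to 0.20 and 83.6% of calls were on the higher side, against 43.8% with it, and Abcb1b, Abcg2 and Abca1 were still called lower. Relative to that shift they lay at -0.75, -0.62 and -0.91. Between arrays numbered 2 and 1, the test called 0 members, against 0.0521% of probe sets, with 1 at an unadjusted p under 0.05, Abcb1a at 0.30 (SE 0.12). Neutrophil and erythroid markers were called in that comparison, Elane, Ngp, Lcn2, Car1 and Ermap all being lower in number 2, and their part in the value of Abcb1a was not tested. The interaction of genotype with number 3 called 0 members, against 0.0521% of probe sets, and 0 had an unadjusted p under 0.05, so a difference between genotypes in these shifts was not detected.

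**Figure D3:**
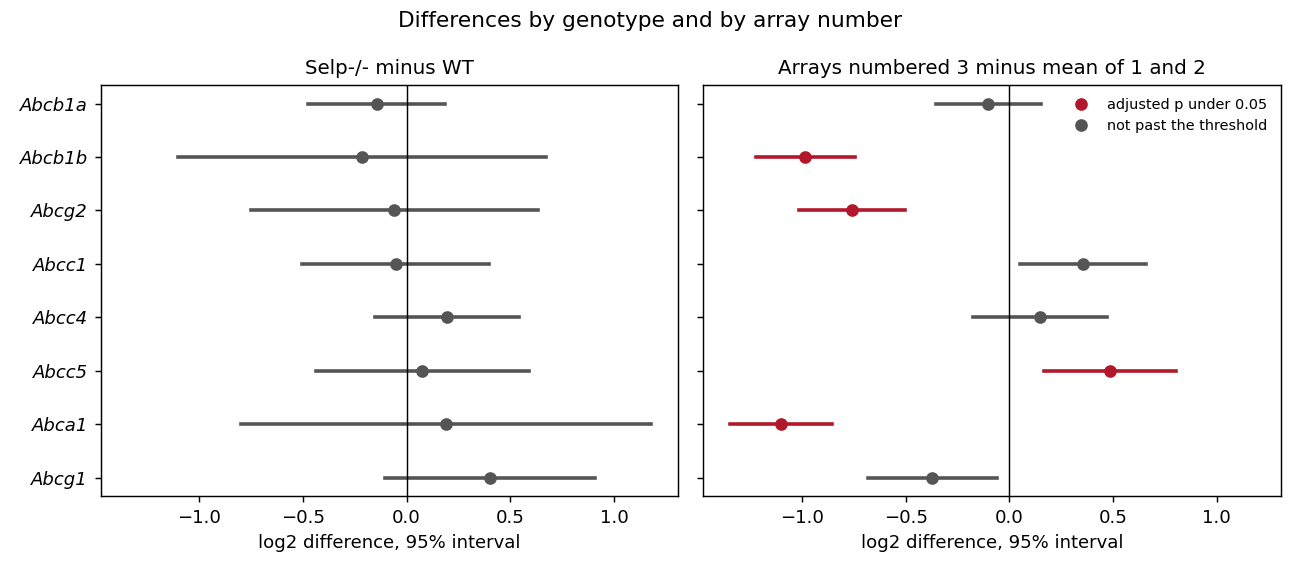
Log2 difference (horizontal axis) with its 95% interval for each transporter gene, Selp-/- minus WT on the left (n = 3 arrays per genotype) and arrays numbered 3 minus the mean of those numbered 1 and 2 on the right; red marks an adjusted p under 0.05. All 8 genotype intervals include 0, while Abca1, Abcb1b and Abcg2 lie below 0 and Abcc5 above it on the right.

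The rest of the ABC family, 45 listed genes, also had no genotype calls. Of 43 with a probe set 25 were bright enough to be tested, and those dimmer were left out of the counts. Between genotypes 0 of the 25 were called (limma), 0 had an unadjusted p under 0.05, and the median was 0.04. Between array numbers 1 of the 25 rose and 4 fell, with a median of -0.02, shares not far from the 9.13% and 11.7% of all probe sets called higher and lower, so the counts are no result about the family. Abcd2, a peroxisomal importer of very long chain fatty acids, rose by 1.71 in arrays numbered 3 (SE 0.14), from 8.85, 9.11, 9.26 and 9.01 in WT 1, WT 2, Selp-/- 1 and Selp-/- 2 to 10.85 in WT 3 and 10.68 in Selp-/- 3. Abcg3, a mouse relative of Abcg2, fell by 1.502 (SE 0.14). It measured 9.55, 9.67 and 7.85 in WT arrays 1 to 3, against 9.41, 9.73 and 8.32 in the Selp-/- arrays. Both arrays numbered 3 lay under the filter level, where background takes a larger part of the signal, which limits the size of this fall.

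Abcb4, the phospholipid transporter next to Abcb1b on the chromosome, fell by 0.96 in arrays numbered 3 (SE 0.10). Its levels were 10.22, 9.26 and 8.85 in WT arrays 1 to 3, against 10.28, 9.43 and 8.83 in the Selp-/- arrays. Number 2 minus number 1 was -0.90 and did not pass (adjusted p = 0.093, limma), while the erythroid and neutrophil markers named above were lower in number 2. Of these 3 neighbours, Abcb1a was not called, Abcb1b was lower in number 3 and Abcb4 was highest in number 1. Abca3, a lipid transporter, fell by 0.48, and Abcg4, a sterol exporter, fell by 0.40. Abcg4 measured 10.20, 9.43 and 9.44 in WT arrays 1 to 3, against 10.16, 9.36 and 9.34 in the Selp-/- arrays. Its arrays numbered 3 thus lay near those numbered 2, and only those numbered 1 stood higher. For Abcg4, number 2 minus number 1 was -0.78 and did not pass (adjusted p = 0.12, limma). The count of 5 family genes called was 3 without WT 1, and between 3 and 4 with any 1 array left out. None of the 4 tested E and F proteins, which work on ribosomes and not in membranes, was called in either comparison (limma).

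Genes tied to cholesterol moved strongly between array numbers and not between genotypes. Of 23 listed genes of cholesterol synthesis and uptake, 20 were measured and tested, and 18 of them rose in arrays numbered 3 and 0 fell, with a median of 0.98 against -0.01 for all probe sets, of which 9.13% were called higher and 11.7% lower. Fdps, which makes farnesyl diphosphate, measured 10.01, 9.52 and 12.24 in WT arrays 1 to 3, against 10.13, 10.16 and 12.13 in the Selp-/- arrays, a rise of 2.23 (SE 0.17, adjusted p = 0.00043, limma). Msmo1, a sterol oxidase, rose by 1.69 (SE 0.11), Sc5d, a sterol desaturase, by 1.40 and Hmgcs1, the synthase before the statin target, by 1.29. Srebf2, the gene of the factor that turns this pathway on, gave -0.06 (SE 0.10). Without WT 3 the count was 12, and with any other array left out between 15 and 17. Between genotypes 0 of the 20 passed (limma), with a median of 0.06.

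The partners and targets of LXR, the sterol receptor that is known to turn on Abca1 and Abcg1, went both ways. Of 11 tested genes, without the members, 4 rose and 1 fell in arrays numbered 3, with a median of 0.07, beside 9.13% of all probe sets called higher and 11.7% lower. Lpl, the lipoprotein lipase, measured 8.15, 8.32 and 10.49 in WT arrays 1 to 3, against 8.16, 8.83 and 11.82 in the Selp-/- arrays. It lay under the filter level in 3 of the 4 arrays numbered 1 and 2. Lpl was tested only through its level in number 3, so no fold is given. The filter favours such genes, so the count of 4 is not read as a result about the list. Scd1, a fatty acid desaturase, rose by 1.40 (SE 0.12) and Pltp, a phospholipid transfer protein, by 0.73 (SE 0.10). Apoe, which accepts exported cholesterol, fell by 0.69 (SE 0.15). It measured 11.49, 11.90 and 10.74 in WT arrays 1 to 3, against 11.44, 12.11 and 11.35 in the Selp-/- arrays. WT 3 was its lowest array, while Selp-/- 3 lay close to Selp-/- 1. Several of these genes are also made by macrophages, whose markers were higher in the same arrays. The part of those cells was not tested.

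Genes of glutathione synthesis and use, whose conjugates Abcc1 carries, were listed together with other targets of the stress factor Nrf2. Of 12 tested, 7 were called higher in arrays numbered 3 and 0 lower, beside 9.13% of all probe sets called higher and 11.7% lower. Slc7a11, the cystine importer, measured 8.01, 8.18 and 11.35 in WT arrays 1 to 3, against 7.91, 7.82 and 11.45 in the Selp-/- arrays. It lay under the filter level in all 4 arrays numbered 1 and 2 and was tested only through its level in number 3, so no fold is given. Mgst1, of the same list, measured 9.02, 8.17 and 9.64 in WT arrays 1 to 3, against 8.90, 8.45 and 10.53 in the Selp-/- arrays. It too passed the filter only through number 3. The filter favours such genes, so the count of 7 beside that share is not read as a result about the list. Hmox1, the heme oxygenase, rose by 1.57 (SE 0.15) and Gstm1, a glutathione transferase, by 1.12 (SE 0.12). Abcc1 and Abcc5 also had their highest levels in these arrays, but Abcc1 was not called. A link between these genes and the exporters was not tested. Nor was the part of the mast cells, monocytes and neutrophils, whose markers were higher in the same arrays. Of 12 tested regulators of pump genes, 2 rose and 1 fell, counts too small to set apart from the 9.13% of all probe sets called higher and 11.7% lower. Hif1a, the oxygen sensor's factor known to act on Abcg2, rose by 0.88 (SE 0.13) and Rxra, the partner of LXR, by 0.41 (SE 0.12), while Foxo3, a stem cell maintenance factor, fell by 0.56 (SE 0.12). Ahr and Nfe2l2, known inducers of efflux genes, gave 0.02 and 0.25 and did not pass. None of the genes in these lists was called between genotypes.

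**Figure D4:**
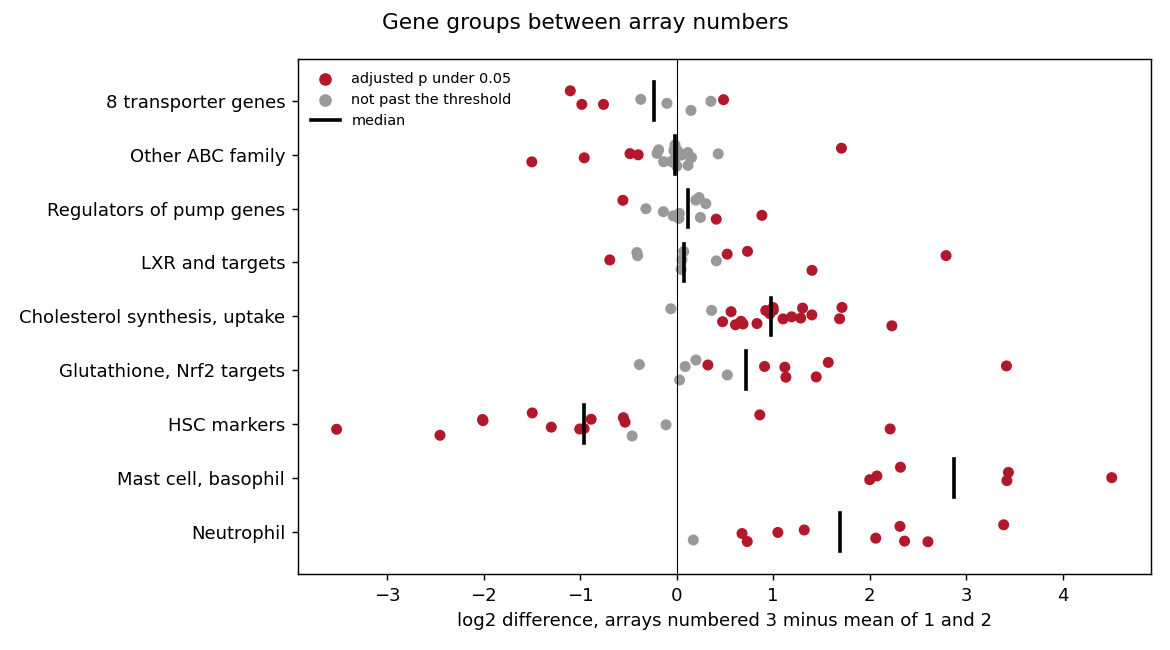
Log2 difference, arrays numbered 3 minus the mean of 1 and 2 (horizontal axis), of each tested gene of 9 groups, 1 point per gene, red where the adjusted p was under 0.05, with the median of the group as a black bar. The 8 transporters had a median of -0.24, cholesterol synthesis genes 0.98 and HSC markers -0.96. Of the 10 mast cell and basophil markers the 6 shown passed the filter, which favours genes raised in number 3. Lpl, Slc7a11 and Mgst1, also shown, passed it only through their levels in number 3.

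HSC markers were lower in the same arrays as Abcb1b and Abcg2. In arrays numbered 3, 11 of 15 HSC markers fell and 2 rose, beside 9.13% of all probe sets called higher and 11.7% lower, with a median of -0.96 and a range from -3.53 to 2.21. Hlf, a transcription factor of HSC, fell by 3.53 (SE 0.13), and Angpt1, a ligand made by HSC, fell by 2.45 (SE 0.11). Thy1 and Gata2, a surface marker and a factor shared with mast cells, rose by 2.21 and 0.86. Summed over whole lists, megakaryocyte markers, 5 of 8 listed, ran from 5015 to 8874 in arrays numbered 1 and 2 and were 20548 in WT 3 and 11489 in Selp-/- 3. All 6 endothelial markers ran from 8677 to 10902 and were 6366 and 5060. B lymphoid markers, 7 of 8 listed, ran from 5446 to 8087 against 5637 and 4202, and those of T and NK cells, 7 of 8, from 2318 to 2798 against 2232 and 2354. The part of these cells in the lower levels of Abcb1b, Abcg2 and Abca1 was not tested. Between genotypes 0 of the 15 were called (limma).

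Genes with the most similar profile were sought for the 3 members whose level spanned at least 1 on the log2 scale, over 12454 other genes and all 6 arrays. Likeness was the root mean square difference after each profile was centred on its own mean, and it is a description with no test, since all profiles share the arrays. For Abcb1b the nearest were Znrf1 at 0.04, Atat1 at 0.05 and I730030J21Rik at 0.07. For Abca1 they were Mllt3, a factor known in HSC self-renewal, at 0.06, Nbea at 0.06 and Tsc22d3, a glucocorticoid-induced gene, at 0.09. For Abcg1 they were Alcam, an adhesion molecule, at 0.09, Irf8, a factor of monocytes and dendritic cells, at 0.09 and Plppr3 at 0.11. Among the members themselves Abcb1b and Abcg2 were the closest pair, at 0.17, and Abcb1b and Abca1 lay at 0.21, while Abcb1a and Abcb1b lay at 0.42 and Abcc5 and Abca1 were the farthest apart at 0.78.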

How the data were processed

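RNA of HSC was amplified, labelled with biotin and hybridized to 1-colour mouse arrays, 3 per genotype, per the labels' protocols. The deposited values are linear intensities, 1 per probe set, with differing array medians and so no visible scaling. MAS5 is named without a version per the submitters' processing notes, and a build and an annotation are not given in the sources used here. Intensities were corrected with normexp (offset 50), taken to log2 and then quantile normalized in limma 3.58.1 under R 4.3.3. Probe sets under the 40th percentile of mean level were left out, which left 17289 of 28815.

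Each was fitted with lmFit and eBayes with a trend, two-sided, adjusted by Benjamini-Hochberg over all tested, with a threshold of 0.05. Genotype was the only term of the first fit, and genotype plus array number of the second, from which number 3 was set against the mean of 1 and 2, and 2 against 1. Another fit held the interaction of genotype with number 3. Same-numbered arrays deviated together (correlations 0.43, 0.53 and 0.81), so the numbers, which come from the titles, were taken to pair the arrays, and the number as a block was an alternative. The code was tested on simulated data.

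Probe sets were named from the platform's annotation where it gave 1 symbol (21780), updated through RefSeq. A gene was read from its brightest probe set. The 8 members, the gene lists and the contrast by array number were chosen with earlier results of these data known. Named are all members, up to 4 genes of a list by smallest p, the 3 genes most alike to a member, and others (Srebf2, Ahr, Nfe2l2, Thy1 and Gata2 among them) chosen after their values were seen or for their role. The number of arrays limits the precision.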

Additional observations from a re-analysis of the deposited data

How the results depend on the processing

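Direction and side of the threshold held for Abcb1b, Abcg2 and Abca1 between array numbers under all alternatives in which they were tested. Abcb1b, Abcg2 and Abcb1a were left out by a filter at the 60th percentile, which left 2 called members and not 4. Between genotypes 0 members were called in any setting, and the replicate block changed no call, with 0 probe sets past the threshold in both fits. All probe sets called between genotypes numbered 4 in the arrays numbered 1 and 2 alone, and 8 there with the replicate block. In those arrays Abcc1 and Abcc5 turned to 0.075 and -0.086, with and without the block. Without normalization the genotype differences of Abcg2 and Abcc1 turned to 0.054 and 0.090, and with median centring that of Abcc1 to 0.0026. Between numbers 2 and 1, the 9 probe sets called became 1286 without normalization, 28 with median centring, 3 without a filter, 15 at the 60th percentile, 5 without the variance trend and 26 without a genotype term. Without normalization, Abcg2, Abcc1, Abcc4, Abca1 and Abcg1 turned to -0.19, -0.21, -0.30, -0.033 and -0.055 there, and the median of all probe sets to -0.22. With median centring Abcg2, Abcc1 and Abcc4 turned to -0.022, -0.019 and -0.13. Abcb1a between numbers 3 and 1 or 2 turned to 0.13 without normalization. The 9 probe sets of the interaction became 57 without normalization, 0 without a filter and 5 without the trend, and Abcb1b turned to 0.0021 there without background correction. The cause was not tested. With 1 array left out, called probe sets ran from 1381 to 3148 by number 3, from 1 to 74 between numbers 2 and 1, and from 0 to 8 for the interaction, which could not be fitted without an array numbered 3. Small differences then turned in sign. By genotype the values ran from -0.54 to 0.12 for Abcb1b, -0.29 to 0.22 for Abcg2, -0.18 to 0.13 for Abcc1, -0.17 to 0.20 for Abcc5 and -0.15 to 0.59 for Abca1. Between numbers 2 and 1 they ran from -0.073 to 0.16 for Abcg2, -0.21 to 0.23 for Abcc4 and -0.17 to 0.13 for Abcc5, and for the interaction from -0.36 to 0.030 for Abcb1a and -0.17 to 0.11 for Abcb1b. Each member had 1 probe set, so averaging probe sets was not run. Where 1 array of a number was left out, the lone array was assumed to vary like the rest. Signals near background limit Abcb1b, Abcg2 and Abca1 in the arrays numbered 3.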
